A study of Homo sapiens with 2 samples.

Results

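The 49 genes described here encode the translation initiation factors of human cells together with their direct regulators. They were taken as every probe set whose single current gene symbol begins with EIF and a digit from 1 to 6, which gave 49 genes with 1 probe set each among 17687 named genes. Argonaute genes, which once carried EIF2C names, are not among them. The family members EIF4A1, EIF4A2, EIF4G2, EIF4G3, EIF3CL, EIF4EBP3 and EIF2S3B were not analysed here. EIF1AY, the Y-linked copy of EIF1AX, is counted below, but its level is not given.

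The levels come from 2 whole-transcript arrays of DLD-1, an established human colorectal cancer cell line. The siControl culture received a negative control siRNA and the siYY1 culture an siRNA against YY1, a zinc finger transcription factor. Both siRNAs were used at 5 nmol/L with a lipid reagent, and RNA was taken after 3 days. Each group is 1 array and YY1 was targeted with 1 siRNA sequence, so every difference compares these arrays, has no replicate error and was not tested. YY1 had no probe set among the named ones, so the knockdown itself was not checked here.

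Initiation brings the initiator tRNA, the small ribosomal subunit and the mRNA together. The GTP-binding factor eIF2 carries the initiator tRNA and is recharged by its exchange factor eIF2B, while stress kinases phosphorylate the alpha subunit of eIF2 and thereby block that exchange. The eIF4 factors bind the cap and open the mRNA, eIF3 holds the small subunit, eIF1 and eIF1A govern the choice of the start codon, and eIF5 and eIF5B complete the joining of the large subunit.

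Levels are in log2 units after quantile normalization of the pair, and a difference is siYY1 minus siControl, so 1 unit is 2-fold. The log2 scale was inferred from the range of the values. Before normalization the arrays had medians of 6.86 in siControl and 6.93 in siYY1. Comparisons with other genes used 8750 protein-coding genes whose higher level of the 2 arrays was at least 7.50, the median over all named genes. Of the initiation factor genes, 47 passed this minimum. The cap-binding paralog EIF4E3 (6.33 and 5.72 in siControl and siYY1) and EIF5AL1, a near-identical copy of EIF5A (5.80 on both arrays), did not. As a check of the label, the epithelial genes EPCAM, CDH1, KRT8, KRT18 and KRT19 lay between 13.96 and 16.68 on both arrays. The intestinal factor CDX2 was at 13.07 and 12.31 and CDH17 at 12.69 and 12.55. VIL1 was close to the minimum at 7.54 and 7.03, and LGALS4, GPA33 and CDX1 were dim. Of the 20 named marker genes of fibroblasts, endothelium and leukocytes, 3 reached the minimum on either array. They were COL1A2 (8.62 in siControl and 8.84 in siYY1), ENG (7.45 and 8.77) and CD14 (7.67 and 6.95), while PTPRC and PECAM1 were below 5.00.

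As a group the initiation factor genes were centred near 0 after quantile normalization, while the number far from 0 depended on the scaling. In such bulk RNA, fewer cells with a transcript and less of it per cell cannot be told apart. The median difference was -0.03 over the 47 genes compared, beside -0.01 over all 8750 genes. Above 0 were 21 members and below 0 were 26, with a lowest value of -0.98 and a highest of 1.39. At 2-fold, 2 members were higher and none was lower, whereas 7.92% of all genes compared were that much higher and 9.38% that much lower. In either direction this is 4.26% of the members beside 17.3% of all genes. Among genes above the 75th percentile of brightness, 1 of 41 members passed 2-fold (2.44%), beside 8.3% of all such genes higher and 8.69% lower, 17% in all. No member reached 3-fold, beside 1.89% of all genes higher and 2.43% lower, 4.32% in all. At 1.5-fold, 7 members were higher and 7 lower, or 29.8% of the members beside 41.2% of all genes (19.4% higher and 21.8% lower). The SD of the differences across genes was 0.60 for the members and 0.75 for all genes compared. The count of lower members depended on the scaling: in the values as deposited 2 members were higher and 5 lower at 2-fold, and with each array centred on its median 2 were higher and 6 lower. These are 14.9% and 17% of the members. The median of the members moved to -0.18 and -0.25 under these scalings and that of all genes to -0.13 and -0.20, with 12.2% and 14.3% of all genes past 2-fold on the lower side and 6.13% and 5.03% on the higher side, 18.3% and 19.3% in all.

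**Figure D1:**
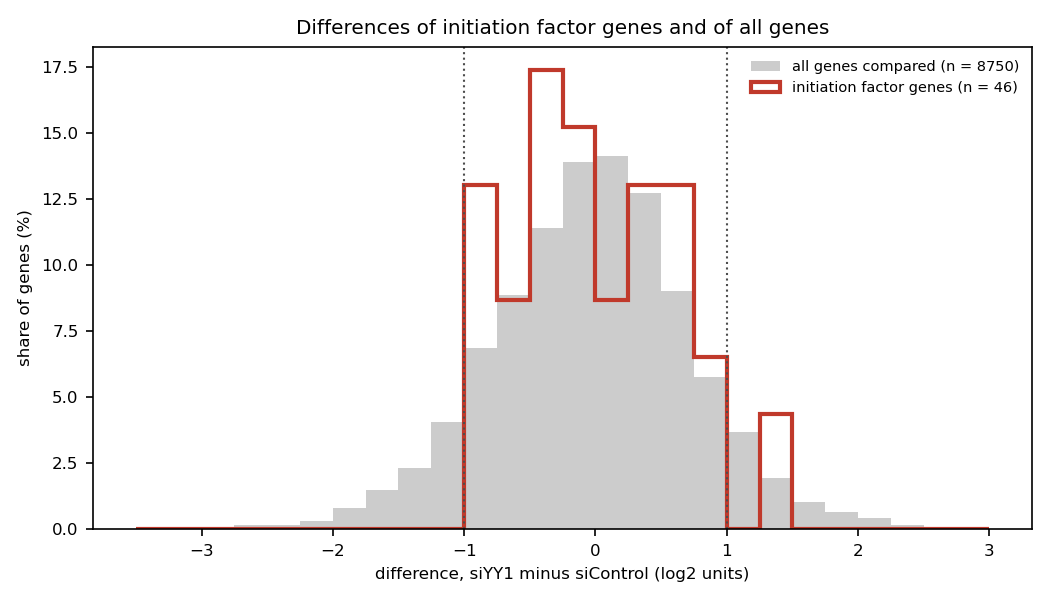
Share of genes (%, vertical axis) by difference between the arrays (siYY1 minus siControl, log2 units, horizontal axis), in grey for all 8750 genes compared and in red for 46 initiation factor genes (EIF1AY is left out), with dotted lines at 2-fold. The red outline lies between the dotted lines except for the 2 members at 1.32 and 1.39.

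Both members past 2-fold were kinases of eIF2 alpha. EIF2AK4, known as GCN2, senses uncharged tRNA when amino acids run short. Its level was 10.44 in siControl against 11.83 in siYY1, a difference of 1.39 or 2.62-fold. EIF2AK3, known as PERK, sits in the membrane of the endoplasmic reticulum and responds to unfolded proteins. It was at 8.20 and 9.53, a difference of 1.32 or 2.51-fold. These were the only members at least 2-fold higher under each of the 4 scalings tried, with 1.25 for both in the values as deposited and 1.18 (EIF2AK4) and 1.17 (EIF2AK3) after centring on medians. The other kinases lay on either side of 0. EIF2AK2, the interferon-induced kinase PKR that binds double-stranded RNA, was at 13.84 and 14.26, a difference of 0.42. EIF2AK1, the heme-regulated kinase HRI, was lower in siYY1, at 14.12 and 13.30, a difference of -0.82 that was just past 2-fold in the values as deposited and -1.07 after centring on medians.

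The 120 bases before the annotated starts of both genes are shown because they belong to the members farthest above 0. They are from RefSeq (GRCh38.p14), on the strand of the gene, at chr2:88627465-88627584 (minus strand) for EIF2AK3 and chr15:39933995-39934114 (plus strand) for EIF2AK4. Capitals mark CCAAT and GGGCGG on either strand (ATTGG and CCGCCC on the other strand), motifs picked after the levels were seen.
EIF2AK3: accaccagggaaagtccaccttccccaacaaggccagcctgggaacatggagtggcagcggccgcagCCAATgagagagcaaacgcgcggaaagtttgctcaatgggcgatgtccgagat
EIF2AK4: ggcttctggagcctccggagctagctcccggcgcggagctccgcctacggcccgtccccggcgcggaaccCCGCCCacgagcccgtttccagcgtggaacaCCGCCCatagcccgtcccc
The stretches differed in composition. That of EIF2AK3 had 59.2% G or C, 7 CpG pairs and 1 CCAAT, and that of EIF2AK4 had 75% G or C, 16 CpG pairs and 2 matches of GGGCGG. Over the same window of all 35116 starts in the table, 20.4% held CCAAT, 34.0% held GGGCGG and the median G or C content was 60%. The matches describe the letters and were not tied to the levels.

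The mRNA of each of the 3 subunits of eIF2, the substrate of these kinases, was lower in siYY1. Protein was not measured. EIF2S1 encodes the alpha subunit that is phosphorylated. It was at 12.59 in siControl against 11.63 in siYY1, a difference of -0.96, and passed 2-fold in the values as deposited (-1.10). EIF2S3, the gamma subunit that binds GTP and the initiator tRNA, was at 14.79 and 14.23, a difference of -0.56. EIF2S2, the beta subunit, was at 14.60 and 14.44 and differed by only -0.15. The difference of the alpha subunit gene, the lowest of the 3, was thus farther from that of the beta than of the gamma subunit gene. EIF2A, an unrelated factor that can deliver initiator tRNA without GTP, was at 12.65 and 12.28, a difference of -0.36. EIF2D, which also binds tRNA without GTP and acts in reinitiation and ribosome recycling, was the only member of this group above 0, at 10.41 and 11.24, a difference of 0.83.

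The 5 subunits of eIF2B, which reloads eIF2 with GTP, had differences between -0.68 and -0.01, and none was above 0 except under loess scaling, where EIF2B5 was at 0.00. The alpha subunit gene EIF2B1 was lowest, at 12.42 in siControl against 11.75 in siYY1, a difference of -0.68. The gamma subunit EIF2B3 was at 11.55 and 11.03, a difference of -0.53, and the beta subunit EIF2B2 was at 12.59 and 12.18, a difference of -0.41. The remaining subunits hardly differed: EIF2B4 (delta) was at 8.81 and 8.71, and EIF2B5, the catalytic epsilon subunit, was at 10.48 and 10.47. The largest of these differences was 1.60-fold, below the 2-fold line under all 4 scalings.

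The factors of start codon choice split by paralog family. EIF1, which guards against initiation at poor start codons, was at 15.35 in siControl against 15.88 in siYY1, a difference of 0.53. Its close paralog EIF1B was at 11.57 and 12.35, a difference of 0.78. EIF1AX, the eIF1A gene that helps the small subunit scan, was lower in siYY1, at 12.65 and 11.74, a difference of -0.90. EIF1AD, which has an eIF1A-like domain, was at 9.83 and 8.88, a difference of -0.94. These members include near-identical copies whose probe sets can share signal, EIF1 with EIF1B and EIF1AX with EIF1AY, so their values are uncertain as single genes. In the values as deposited EIF1AX and EIF1AD passed 2-fold, at -1.05 and -1.08.

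**Figure D2:**
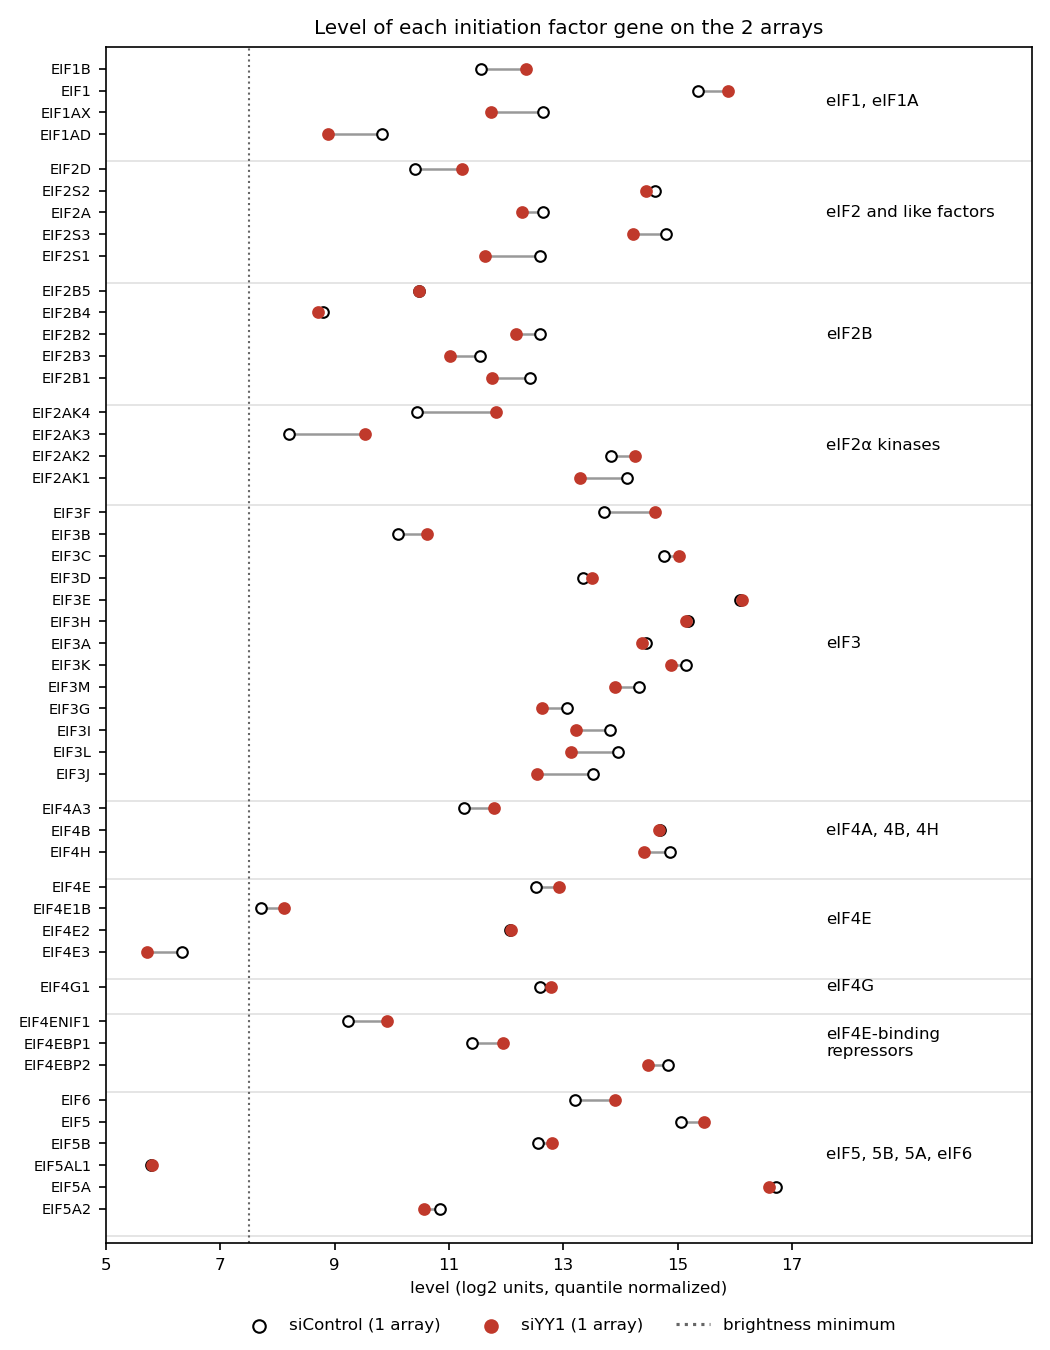
Level of 48 initiation factor genes (log2 units, horizontal axis) on the siControl array (open circles) and the siYY1 array (red circles), 1 row per gene, grouped by complex, with a dotted line at the brightness minimum of 7.50. In the eIF2B rows the red circles lie left of or on the open ones, EIF2AK3 and EIF2AK4 have the longest lines to the right and EIF3J the longest to the left.

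The subunits of eIF3, the largest initiation factor, lay on both sides of 0. Of 13 subunit genes 5 were above and 8 below, with a median of -0.07 and a range from -0.98 to 0.88, and none passed 2-fold. The lowest was EIF3J, whose product is only loosely attached to the complex and helps it bind the small subunit. EIF3J was at 13.52 in siControl against 12.54 in siYY1, a difference of -0.98, and was past 2-fold at -1.12 in the values as deposited. EIF3L was at 13.96 and 13.13, a difference of -0.82, and was past 2-fold, at -1.06, only when arrays were centred on medians. The highest was EIF3F, a subunit with an MPN domain, at 13.72 and 14.60, a difference of 0.88. EIF3H, which carries the other MPN domain of the complex, was at 15.18 and 15.15, a difference of -0.03.

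Subunits of the same module did not always share a direction. EIF3B, the scaffold of the module that also holds eIF3g and eIF3i, was at 10.11 and 10.61, a difference of 0.51, whereas EIF3I was at 13.82 and 13.23, a difference of -0.58, and EIF3G was at 13.06 and 12.63, a difference of -0.43. EIF3K, which pairs with EIF3L, was at 15.15 and 14.88, a difference of -0.27. EIF3M was at 14.32 and 13.90, a difference of -0.42. Among the core subunits, EIF3A was at 14.44 and 14.37, and EIF3C was at 14.76 and 15.02, a difference of 0.25. EIF3C has the near-identical copy EIF3CL, so its signal may come from both. EIF3D, which can itself bind the cap of some mRNAs, was at 13.35 and 13.49, and EIF3E was at 16.10 and 16.13. The differences of EIF3D (0.14) and EIF3E (0.04) turned to -0.05 in the values as deposited and to -0.12 after centring on medians.

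Cap-binding genes were slightly higher or level in siYY1, apart from the dim EIF4E3. EIF4E, the cap-binding protein that limits cap-dependent initiation, was at 12.53 in siControl against 12.93 in siYY1, a difference of 0.40 or 1.32-fold. EIF4E1B, best known from oocytes, was close to the minimum at 7.72 and 8.11, a difference of 0.39. EIF4E2, which competes for the cap and represses, was at 12.07 and 12.09, and its difference of 0.02 was below 0 in the values as deposited (-0.12) and after centring (-0.19). The scaffold EIF4G1, which joins the cap-binding protein to eIF3 and to the poly(A)-binding protein, was at 12.59 and 12.78. Its difference of 0.19 was -0.03 after centring on medians.

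Repressors that bind eIF4E differed from each other. EIF4EBP1, which blocks eIF4E until mTOR phosphorylates it, was at 11.41 and 11.95, a difference of 0.54. EIF4EBP2, a paralog with the same mode of action, was at 14.83 and 14.48, a difference of -0.35. The 2 paralogs thus lay on opposite sides of 0 under each scaling. EIF4ENIF1, a carrier that takes eIF4E to the nucleus and to P-bodies, was at 9.23 and 9.91, a difference of 0.68 or 1.60-fold. Of the helicase genes and helpers of the eIF4 complex, EIF4H was at 14.87 and 14.41, a difference of -0.45, and EIF4B was at 14.69 and 14.67. EIF4A3, the helicase at the core of the exon junction complex, was at 11.26 and 11.80, a difference of 0.53.

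Of 5 compared factors of the late steps 3 were above 0 and 2 below, and none passed 2-fold. EIF5, which triggers GTP hydrolysis by eIF2, was at 15.06 in siControl against 15.47 in siYY1, a difference of 0.40. EIF5B, the GTPase of subunit joining, was at 12.55 and 12.81, a difference of 0.26. EIF6, which keeps free large subunits apart from small ones, was at 13.21 and 13.91, a difference of 0.69 or 1.62-fold. By contrast EIF5A, the hypusine-carrying factor that eases elongation through difficult sequences, was at 16.71 and 16.60. Its paralog EIF5A2 was at 10.84 and 10.56, a difference of -0.28.

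Signs were mostly stable to the scaling of the arrays. The 4 scalings are not independent, since centring takes the same 0.07 from every deposited difference. Of the 47 members compared, 17 were above 0 and 25 below 0 under all 4 scalings, and the other 5 were EIF2B5, EIF3D, EIF3E, EIF4E2 and EIF4G1. At 1.5-fold, 4 members were higher and 7 lower under all 4, beside 7 higher and 7 lower in the main setting. Counts under all 4 scalings were not made over all genes. The median of all genes itself was -0.13 as deposited and -0.20 with centring, so the larger lower counts are not read as a trait of the members. In the main setting 8 members differed by less than 1.1-fold, a count that was not made over all genes either.

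**Figure D3:**
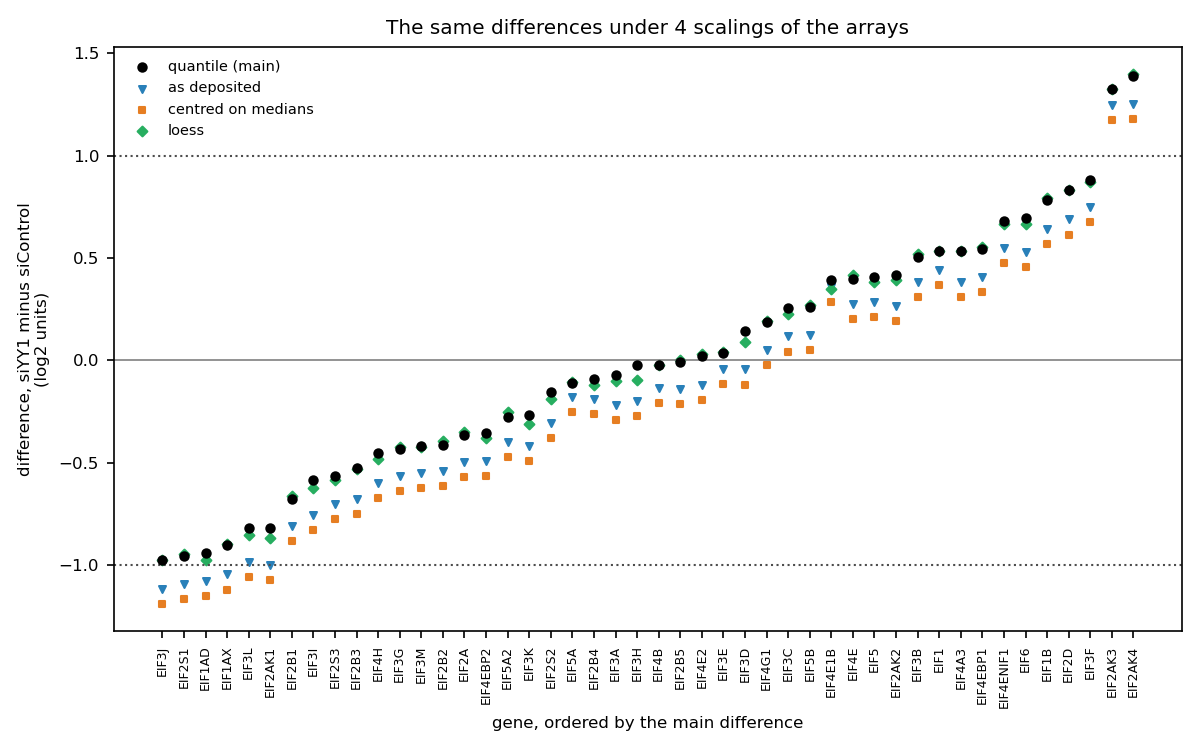
Difference between the arrays (siYY1 minus siControl, log2 units, vertical axis) for 46 initiation factor genes ordered by the main value, under 4 scalings marked by colour and shape, with dotted lines at 2-fold. Values as deposited and centred values lie below the quantile values throughout, and take 5 and 6 genes below the lower dotted line, while EIF2AK3 and EIF2AK4 stay above the upper one.

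Start sequences were read from the RefSeq promoter table (GRCh38.p14, 250 bases before to 50 after each annotated start), which held 41 of the 49 genes. The 8 bases AAGATGGC, which match the known YY1 motif, are shown because YY1 was the target. On either strand (GCCATCTT on the other) they occurred in 4 of the 41 members (9.76%), in 7.40% of the 7387 compared genes in the table and in 2.89% of all 35116 starts. Capitals mark the match. Positions are counted from 1 at the annotated start.
EIF4E: cagatcgatctAAGATGGCgactgtcgaac
EIF3F: tctttctcgacAAGATGGCcacaccggcgg
EIF2B5: cgtgagagaagAAGATGGCggcccctgtag
EIF5: cAAGATGGCggcggccgccg
In EIF4E (chr4:98929097-98929126, minus strand), EIF3F (chr11:7987339-7987368, plus strand) and EIF2B5 (chr3:184135372-184135401, plus strand) the match began 19, 14 and 26 bases into the transcript and on its own strand. In 4.37% of the compared genes the motif stood after a start in this way. The match of EIF5 (chr14:103334638-103334657, plus strand) lay before the second of its annotated starts. The letters hold ATG, and whether it is the start codon of these genes was not examined. These members differed by 0.40 (EIF4E), 0.88 (EIF3F), -0.01 (EIF2B5) and 0.40 (EIF5), and compared genes with the motif had a median of 0.01 beside -0.02 without it. EIF2AK3 and EIF2AK4 did not hold these 8 bases in the window, which says nothing about YY1 itself. The shorter GCCAT, or ATGGC on the other strand, which overlaps the longer motif, was in 22 of the 41 members (53.7%), 46.8% of compared genes and 37.8% of all starts.

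Several members had a pyrimidine tract at an annotated start. Where their transcripts begin in these cells was not measured. Such a start is the mark of 5′ terminal oligopyrimidine mRNAs, which encode ribosomal proteins and translation factors and whose translation is governed by mTOR and the RNA-binding protein LARP1. A C at the annotated start followed by at least 4 bases that were each C or T was found in 8 of the 41 members (19.5%). The share was 7.35% of compared genes and 4.07% of all starts. A gene counted if any of its starts matched. Whether these members are regulated as such mRNAs was not tested. The first 24 bases of these 8 members are shown with the tract in capitals. The 8 were picked by this feature, so each sequence shown holds a tract.
EIF2S3: CTCTTTTggcaacatggcgggcgg
EIF2A: CTCTTTCCgggacaacatggcgcc
EIF2D: CCTTTTCgcggccgggccccagca
EIF3D: CTCTTTTCCTggtttctcaagagt
EIF3F: CTTCTTTCTCgacaagatggccac
EIF3K: CTCTTCCTgttcccgtccttgagg
EIF3M: CTTTTCCggtcggcgtggtcttgc
EIF4B: CTTTTgcgttctctttccctctcc
They lie at chrX:24054956-24054979 (EIF2S3), chr3:150546787-150546810 (EIF2A), chr22:36529143-36529166 (EIF3D, minus strand), chr1:206612442-206612465 (EIF2D, minus strand), chr11:7987337-7987360 (EIF3F), chr19:38619188-38619211 (EIF3K), chr11:32583831-32583854 (EIF3M) and chr12:53006456-53006479 (EIF4B), on the plus strand unless stated. The tracts did not sort the members by direction: 3 of the 8 were above 0, their median was -0.15, and they reached from -0.56 for EIF2S3 to 0.88 for EIF3F. Compared genes with such a start had a median of 0.05 beside -0.02 for the others.

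Genes that act with the initiation factors lay on both sides of 0. Of 68 such genes listed from general knowledge, 56 were compared, and at 2-fold 6 were higher and 7 lower in siYY1, or 23.2% beside the 17.3% of all genes. The 6 included RPTOR, which passed the brightness minimum only on the siYY1 array. The lists that make up the 68 are small, so the share given for each rests on few genes. The median of the genes compared was 0.01. The balance moved with the scaling, to 4 higher and 9 lower in the values as deposited and 2 higher and 11 lower after centring on medians. Of the 13 genes past 2-fold, 11 and 9 kept their call under these scalings.

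Kinases and phosphatases that act on the factors gave 3 higher and 1 lower of 14 (28.6% beside 17.3% of all genes). The balance was 2 higher and 2 lower in the values as deposited, where DELE1, which relays mitochondrial stress to EIF2AK1, was at -1.06, and 2 higher and 3 lower after centring, where the S6 kinase RPS6KB1 was at -1.07 too. MTOR, the kinase that phosphorylates the eIF4E-binding proteins, was at 9.89 in siControl against 10.91 in siYY1, a difference of 1.03, which was 0.89 in the values as deposited. RPTOR, which brings substrates to mTOR, was at 6.50 and 7.73, a difference of 1.24 from a siControl level below the minimum. It is among the 3 higher only because its siYY1 level passed the minimum. The kinases that phosphorylate eIF4E itself lay on opposite sides: MKNK1 was at 10.57 and 8.82, a difference of -1.75, and MKNK2 at 9.88 and 11.35, a difference of 1.47. PPP1R15A and PPP1R15B, which direct a phosphatase to eIF2 alpha, had differences of 0.61 and 0.17. That of PPP1R15B was -0.03 after centring on medians.

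Cap and poly(A) partners gave 2 higher and 2 lower of 14 (28.6% beside 17.3% of all genes), which was 2 higher and 3 lower in the values as deposited, with GIGYF2, a partner of EIF4E2, at -1.01, and 0 higher and 3 lower after centring on medians. LARP1 was at 13.08 in siControl against 14.30 in siYY1, a difference of 1.22. The poly(A)-binding protein PABPC4 was at 12.70 and 13.88, a difference of 1.17. Both were just under 2-fold after centring, at 0.99 and 0.95. LARP4, which binds poly(A) and its binding protein, was at 10.82 and 9.80, a difference of -1.02. NCBP1, the large subunit of the nuclear cap-binding complex, was at 12.89 and 11.28, a difference of -1.62. Among 7 partners in scanning and recycling, DDX3X, an RNA helicase that helps with structured leaders, was at 13.98 and 12.83, a difference of -1.14, and the reinitiation factor MCTS1 was highest at 0.44.

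Of 5 elongation genes compared, 1 was higher and 2 were lower at 2-fold, a count too small to set against the 17.3% of all genes. EEF1A1, which delivers aminoacyl-tRNA, was at -0.21, a sign that turned to 0.02 in the values as deposited, and EEF1D, part of its exchange factor, was at -0.74. EEFSEC, which delivers the selenocysteine tRNA, was at 10.33 and 8.64, a difference of -1.69. EEF1A2, an elongation factor isoform of muscle and nerve, differed by -1.05 and EEF2K, which inhibits eEF2, by 1.05, the latter below 2-fold in the values as deposited. EFL1, the GTPase that releases eIF6 from large subunits, was at 10.71 and 9.69, a difference of -1.03, opposite in sign to EIF6. In its list ITGB4, an integrin that binds eIF6, was highest at 0.53. No compared gene of termination (ETF1 at -0.09 to HBS1L at 0.22) passed 2-fold. The same held for the exon junction complex, from CWC22 at -0.69 to MAGOHB at 0.42. DHPS, which starts hypusine synthesis on eIF5A, was at 0.04, and the later enzyme DOHH was dim. The mitochondrial initiation factors MTIF2 and MTIF3 differed by -0.85 and -0.27, and MTIF2 passed 2-fold after centring on medians.

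**Figure D4:**
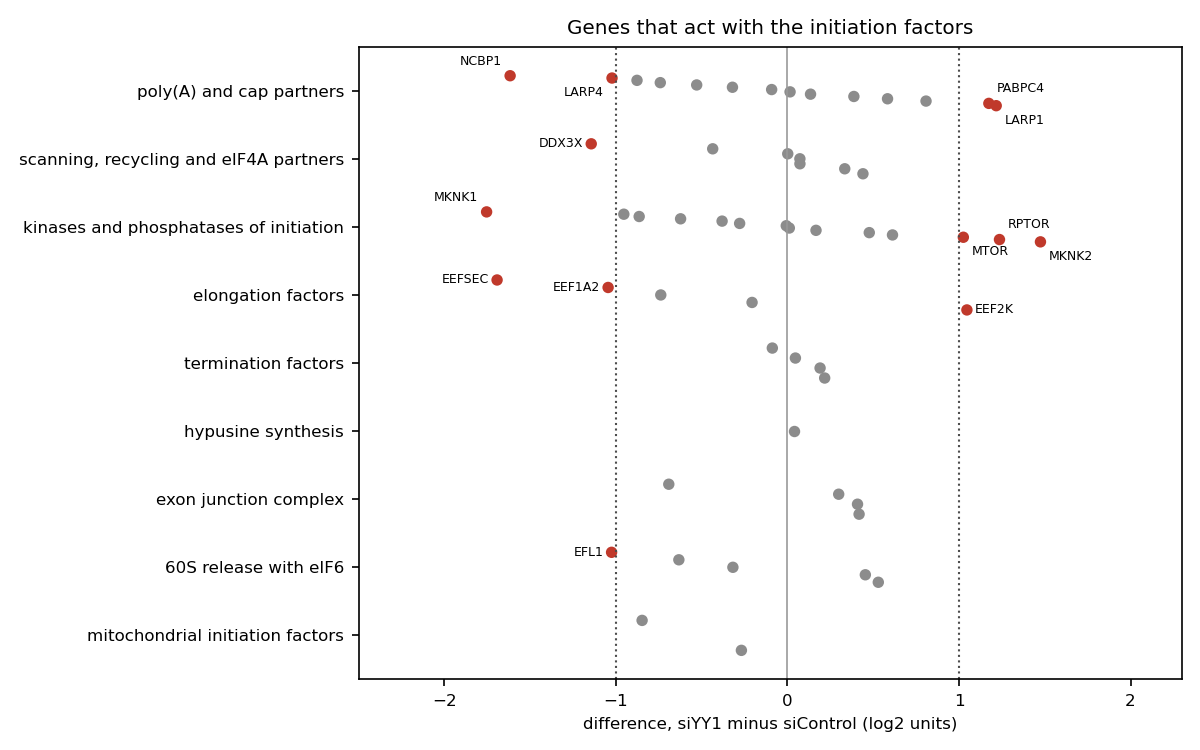
Difference between the arrays (siYY1 minus siControl, log2 units, horizontal axis) for 56 genes that act with the initiation factors, 1 point per gene in 9 lists, red and named where past the dotted 2-fold lines; vertical spread within a list only separates points. MTOR, RPTOR and MKNK2 stand opposite MKNK1 in their list, and no termination gene lies beyond 0.22.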

How the data were processed

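Expression was measured on GeneChip arrays hybridised with biotin-labelled sense cDNA, according to the labels' protocols. A single value for each probe set and array was deposited by the authors, read here as log2 from its range. Neither its software nor its normalization is given in the sources used here. Because the 25th, 50th and 75th percentiles of siYY1 lay 0.18, 0.07 and -0.13 from those of siControl, the pair was quantile normalized over all 21448 probe sets. The platform annotation named 1 gene for 17709 probe sets, which gave 17687 genes. Genes with an entry in the RefSeq table of GRCh38.p14 took their current symbol and gene type from it. Any without an entry kept the platform symbol and were not taken as protein-coding, and their number was not counted. Probe sets of a gene were averaged. With 1 array per group no test was possible and the number of arrays limits the precision. The members, lists and thresholds were chosen with earlier results of these data known.

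Every member is named. Of the partner lists the text names each gene past 2-fold and the highest and lowest of each list, with a few others chosen after their values were seen. Alternatives were no further scaling, centring each array on its median, loess (span 0.3), the brightest probe set, other brightness minimums, all gene types, thresholds of 1.5-fold and 3-fold, the mean, and fewer members. The computation was tested on simulated data. Python 3.11.15, numpy 2.4.6, pandas 2.3.3, statsmodels 0.14.6 and matplotlib 3.10.9 were used.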

Additional observations from a re-analysis of the deposited data

How the results depend on the processing

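The count of 2 members past 2-fold, both higher, was the same with loess. It could not change with the brightest probe set, since each member has 1 probe set. All gene types left the same 47 members. Minimums at the 25th percentile or none added only EIF4E3 (-0.61) and EIF5AL1 (0.01). The count stayed at 2 there, beside 13.4% and 10.3% of all genes past 2-fold. The count was 7 (2 higher, 5 lower) in the values as deposited and 8 (2 higher, 6 lower) with centring on medians. With a minimum at the 75th percentile (10.57) it was 1, since EIF2AK3 was below that minimum and so not compared. It was 14 at 1.5-fold (7 higher, 7 lower) and 0 at 3-fold (0 higher). The median of the members, -0.03, was -0.18 as deposited and -0.25 with centring, where the median of all genes was -0.13 and -0.20. Under the other alternatives it moved by less than 0.1. Without the kinases and the eIF4E-binding repressors it was -0.08 over 40 genes, none of which passed 2-fold, beside 17.3% of all genes. Only EIF2AK3 and EIF2AK4 had a call in the main setting that could reverse, and both kept it under each scaling. Other members gained a call on the lower side, 5 as deposited and 6 with centring. The count of partner genes past 2-fold was 13 under each scaling, of which 11 as deposited, 9 with centring and 13 with loess were shared with the main setting, and the split by direction moved. No paired analysis was possible because each group is 1 array. Dim values limit EIF4E3, EIF5AL1 and EIF4E1B.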
